A study of Mus musculus with 15 samples.

Results

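The IL-15 system and other cytokine receptors comprised 10 genes of the 561 counted by a nanoString nCounter Mouse Immunology panel: the cytokine gene Il15, its private receptor chain Il15ra, the shared chain Il2rg, and the receptor genes Il4ra, Il13ra1, Il17ra, Il21r, Il6ra, Ifngr1 and Ifngr2. They were chosen by gene symbol, and all 10 were present in the deposited table. The assay counts color-coded probes bound to individual mRNAs without amplification. The cells were RAW 264.7, an established mouse macrophage line, and all 15 samples received LPS, a bacterial Toll-like receptor 4 ligand, together with plasma extracellular vesicles (EVs) for 24 hours, so no sample lacked LPS or EVs. The EVs came from female C57BL/6J mice of 6 to 8 weeks, either sham mice or mice taken 3 or 7 days after whole body ionizing radiation (WBIR) of 2 or 9 Gy. This gave 5 groups of 3 samples: sham EVs, 2 Gy day 3 EVs, 2 Gy day 7 EVs, 9 Gy day 3 EVs and 9 Gy day 7 EVs. Only the EV donors were irradiated, and the sources used here do not say whether EVs of several mice were combined. The methods state that samples were run in triplicate, but not whether the 3 samples of a group were separate cultures. The p-values therefore measure only the spread between these samples, which may be technical. Replicates 1 and 2 titled 9 Gy day 3 carry a second label that puts them at day 7. They were grouped by title, and results that turn on them are also given without them.

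Cytokines of the common gamma chain family signal through receptors that share the Il2rg product and pair it with private chains. IL-15 is unusual among them, because macrophages and dendritic cells hold it on their own surface bound to IL-15 receptor alpha and present it to neighboring NK cells and T cells, which carry the signaling chains. Macrophages themselves use Il2rg with Il4ra to read IL-4, Il4ra with Il13ra1 to read IL-4 or IL-13, and Ifngr1 with Ifngr2 to read interferon-gamma, the cytokine that primes them for bacterial killing.

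Total counts ranged from 43176 to 87899 in the 9 Gy day 3 samples and from 453178 to 837995 in the other 12 samples. Between 190 and 246 of the 561 genes stood at a count of 1, the lowest deposited value, in the 9 Gy day 3 samples, against 5 to 11 elsewhere. Each sample was scaled by the geometric mean of its 14 housekeeping genes (normalized counts), and the 269 genes averaging 20 or more counts were tested, 8 of the 10 members among them. Il6ra and Il21r fell below that mean. On this scale the median log2 fold change of all tested genes against sham EVs was -0.46 with 9 Gy day 3 EVs and -0.45 with those of day 7. The share of higher genes among those called was 21.3% and 19.5%, against 49.6% and 49.7% with TMM scaling and 78.6% and 82.2% with total-count scaling, so the direction of a small change depended on the scaling. Of the macrophage markers, all 10 on the panel passed the mean of 20 counts, with Fcer1g, an Fc receptor signaling chain, at a mean of 3734 counts. Of the T cell, B cell and NK cell markers, 2 of 17, 3 of 9 and 1 of 9 passed. The highest of each list were Cd8a, Blnk and Eomes, at means of 97.8, 136 and 35.1 counts. The defining T cell genes Cd3d and Cd3e averaged 11 counts or fewer in every group. Summed over the macrophage list, normalized counts lay at 9794 to 13848 with sham EVs, 5951 to 7315 with EVs of 9 Gy day 3 and 5894 to 7085 with those of day 7. Of its 10 genes, 6 were lower and 1 higher at day 3, and 7 lower and 1 higher at day 7, Csf1r being the higher one. With the same scaling, 41.3% and 49.1% of all tested genes were lower and 11.2% and 11.9% higher. The summed lymphocyte list stood at 490 to 590 with sham EVs and 351 to 411 with 9 Gy day 7 EVs. In the 9 Gy day 3 samples its median gene stood at a count of 1, the lowest deposited value, so no sum is given there. The part of these shifts in the results below was not tested.

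Against sham EVs, cells with 9 Gy EVs held less Il2rg and Ifngr2 mRNA and more Il15ra mRNA at both days. The test was the quasi-likelihood test of edgeR, adjusted after Benjamini and Hochberg over all 269 genes. The Il15ra result was the weaker one. Its day 3 log2 fold change fell from 1.13 to 0.02 without the samples of conflicting labels. At both days it lay within the range of the housekeeping genes. With 9 Gy day 3 EVs, 3 of the 8 tested members passed the threshold of 0.05, 1 higher and 2 lower, where 52.4% of all tested genes passed, 11.2% higher and 41.3% lower. With 9 Gy day 7 EVs, 4 members passed, 1 higher and 3 lower (Il17ra in addition), where 61% of all genes passed, 11.9% higher and 49.1% lower. With this scaling the members were called at a share no higher than that of the panel. The split of higher and lower members moved with the scaling, as did that of all genes. With TMM it was 2 and 2 at day 7, where 27.9% of genes were higher and 28.3% lower. With total counts it was 4 and 1 at day 3 (45% and 12.3% of genes) and 5 and 2 at day 7 (53.2% and 11.5% of genes). Their median log2 fold change was -0.18 at day 3 and -0.19 at day 7. At day 3 all 3 samples lay below all sham samples for 2 members, where 43.9% of the tested genes did so, and above them for no member (11.9% of genes). At day 7 they lay below for 3 members (49.1% of genes) and above for 1 (12.6% of genes). With 2 Gy EVs none of the 8 members and none of the 269 genes passed at either day (0%). At an unadjusted p under 0.05, 1 member and 2.6% of genes passed with 2 Gy day 3 EVs, and no member and 0.372% of genes with 2 Gy day 7 EVs. DESeq2 called no member with 2 Gy EVs, and 1 gene in all at day 3 and 0 at day 7.

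**Figure D1:**
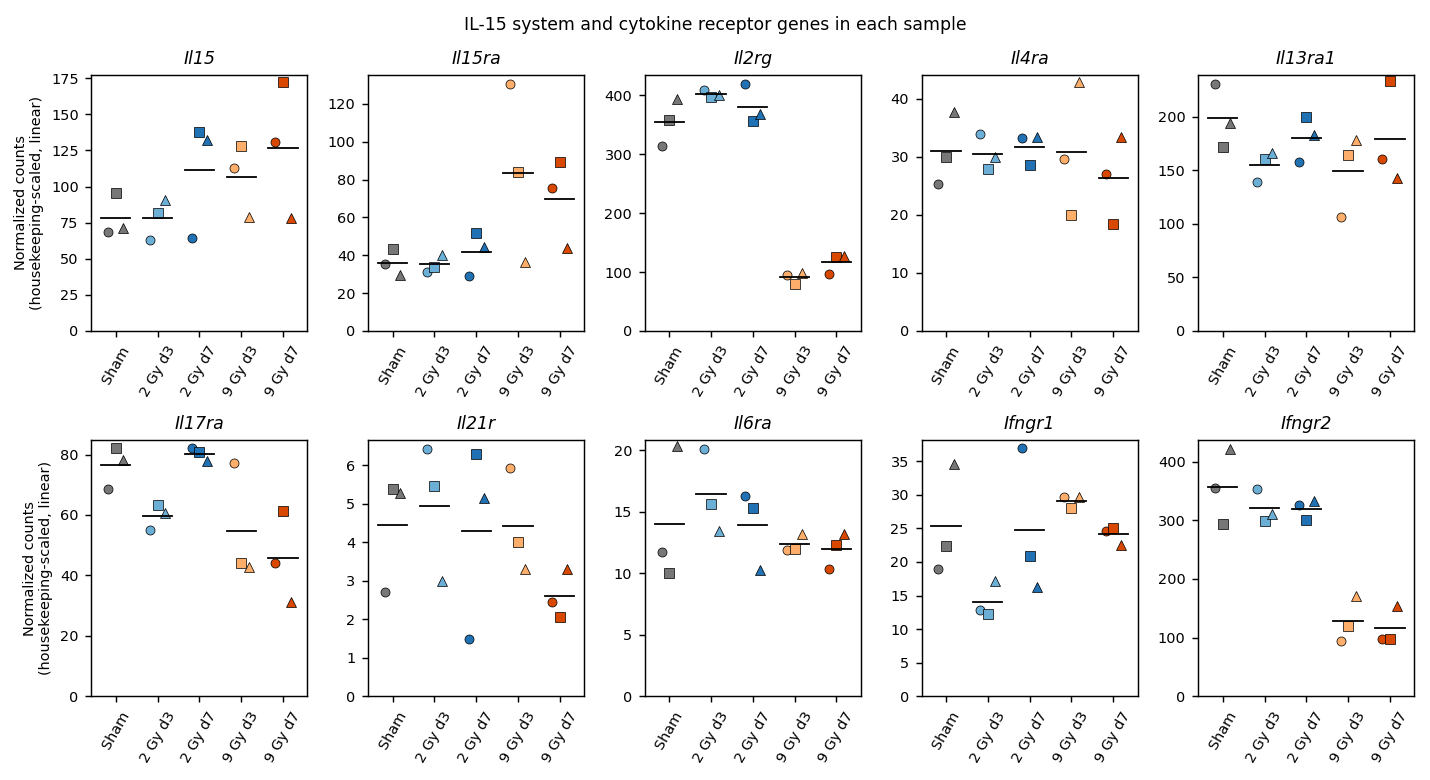
Normalized counts (linear axis, from 0) of the 10 member genes in each of the 15 samples, by EV group. Circles, squares and triangles are replicates 1, 2 and 3 and the bar is the group mean. Il2rg and Ifngr2 of all 6 samples with 9 Gy EVs lie below all other samples, while Il15 and Il15ra overlap between groups at 9 Gy day 3.

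Il15 itself stood at 68.6, 95.4 and 71.5 normalized counts with sham EVs. It stood at 113, 128 and 79.3 with 9 Gy day 3 EVs and at 131, 172 and 78.1 with 9 Gy day 7 EVs. In both 9 Gy groups replicate 3 lay within the sham range and the other samples lay above it. The log2 fold change was 0.42 (SE 0.36, adjusted p = 0.330) at day 3 and 0.69 (SE 0.31, adjusted p = 0.0704) at day 7, so neither passed the test. At day 3 the value was 0.01 without the samples of conflicting labels, and it passed with total counts (1.46, adjusted p = 0.00678). The day 7 change passed in 10 of 28 alternative analyses, including TMM scaling (1.18, adjusted p = 0.00494), DESeq2 (0.69, adjusted p = 0.0417) and the replicate number as a block (0.68, adjusted p = 0.0444), and without 9 Gy day 7 replicate 3 (0.94, adjusted p = 0.0138). It was positive in all 28. With 1 sample left out at a time it ranged from 0.41 to 0.94 and passed in 2 of 15 fits. With 2 Gy EVs, Il15 stood at 63.2, 81.7 and 90.4 at day 3 and at 64.3, 137 and 132 at day 7, and both groups overlapped sham.

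Il15ra encodes the high-affinity alpha chain that carries IL-15 to the surface. With sham EVs it stood at 35.2, 43.1 and 29.4 normalized counts. With 9 Gy day 3 EVs it stood at 130, 84.1 and 36.3, resting on 11 to 22 raw counts a sample, and with 9 Gy day 7 EVs at 75.7, 89.1 and 43.8, from 93 to 174 raw counts. The day 7 samples all lay above sham, the lowest by a small margin, while day 3 replicate 3 lay within the sham range. The group mean rose from 35.9 ± 6.87 (SD, n = 3) to 83.6 ± 47.0 and 69.5 ± 23.3. The log2 fold change was 1.13 (SE 0.41, adjusted p = 0.0327) at day 3 and 0.95 (SE 0.34, adjusted p = 0.0244) at day 7, which is 1.58 and 1.40 above the median of all genes. Il15ra passed as higher under each of 5 scalings at both days, with log2 fold changes from 1.13 to 2.17 and from 0.95 to 2.10. The day 3 call rested on the samples with conflicting labels: without them the log2 fold change was 0.02 (adjusted p = 0.996), from the 1 remaining sample. It was also lost without 9 Gy day 3 replicate 1 (0.71) or replicate 2 (1.07), and at both days without sham replicate 1 (1.12 and 0.94) or sham replicate 3 (1.00 and 0.82). The day 3 call also missed the threshold without a filter on low counts (1.13, adjusted p = 0.0509) and with only the groups compared in the fit (1.14, adjusted p = 0.0557). The day 7 call was lost without 9 Gy day 7 replicate 1 (0.88) or replicate 2 (0.73). With the conflicting samples left out, the day 7 call was kept (0.95, adjusted p = 0.0119).

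Il2rg, the common gamma chain gene, showed the clearest change of the 10 members. It stood at 313, 358 and 394 normalized counts with sham EVs. With 9 Gy day 3 EVs it stood at 94.8, 80.1 and 99.1, and with 9 Gy day 7 EVs at 96.9, 125 and 128. Both 9 Gy groups lay below every sham sample without overlap. The log2 fold change was -1.96 (SE 0.17, adjusted p = 5.7e-07) at day 3, a fold of 0.257, and -1.61 (SE 0.14, adjusted p = 6.7e-07) at day 7, a fold of 0.328. Ranked among the 269 tested genes, these values stood at the 8.92 and 11.5 percentile, below the median gene. Il2rg was lower and past the threshold in all 27 alternatives at day 3 and all 28 at day 7, with log2 fold changes from -2.18 to -0.94 and from -1.71 to -0.51. Without the samples of conflicting labels the day 3 value was -1.84, from 1 remaining sample, with the spread taken from the other groups (adjusted p = 0.000332). With 2 Gy EVs Il2rg stood at 398 to 408 at day 3 and 356 to 418 at day 7. The 2 Gy day 3 samples all lay above sham, at a log2 fold change of 0.18 (SE 0.14, adjusted p = 0.998). Samples lay above all sham samples for 4.83% of the tested genes in that comparison.

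The promoters of these IL-15 system genes are shown because Il15ra and Il2rg moved in opposite directions in the same samples. The RefSeq table used here (GRCm38.p6) held 9 promoters of 8 of the 10 members, with 2 start sites for Il15ra, and promoters of Il15 and Il17ra were not analysed here. The 250 bases before each start were searched on both strands for TTCNNNGAA, the core spacing bound by STAT proteins, for GAAANNGAA, bound by interferon regulatory factors, and for GGNNNTTCC, a partial NF-kB motif. Capitals mark matches, and no matches overlapped.
Il15ra promoter (first start), chr2:11705043-11705292, plus strand: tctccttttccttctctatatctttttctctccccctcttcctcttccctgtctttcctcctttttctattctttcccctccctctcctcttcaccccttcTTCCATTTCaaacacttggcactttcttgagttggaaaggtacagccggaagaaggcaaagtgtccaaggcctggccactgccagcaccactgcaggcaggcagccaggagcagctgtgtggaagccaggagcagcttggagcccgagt
Il2rg promoter, chrX:101268256-101268505, minus strand: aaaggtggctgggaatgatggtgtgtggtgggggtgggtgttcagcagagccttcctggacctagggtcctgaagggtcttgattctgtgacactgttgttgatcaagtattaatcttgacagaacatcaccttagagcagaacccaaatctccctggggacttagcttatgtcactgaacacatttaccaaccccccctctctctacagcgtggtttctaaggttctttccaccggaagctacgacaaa
The first Il15ra promoter held 1 match to the interferon regulatory factor motif, TTCCATTTC on the minus strand, beginning at position -149 from the start. The second Il15ra promoter and the Il2rg promoter held no match to any of the 3 motifs. Across the 9 member promoters, 0 held the STAT motif, 1 the interferon regulatory factor motif and 2 the NF-kB motif, while 7.02%, 7.13% and 15.7% of all 32841 RefSeq promoters held them. A match is a run of letters in this window and no evidence of binding.

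Of the interferon-gamma receptor chains, Ifngr2 fell with 9 Gy EVs and Ifngr1 did not pass the test. Ifngr2, the accessory chain that brings JAK2 to the complex, stood at 356, 293 and 421 normalized counts with sham EVs. It stood at 94.8, 120 and 172 with 9 Gy day 3 EVs and at 98.3, 97.3 and 154 with 9 Gy day 7 EVs. Every 9 Gy sample lay below every sham sample, with replicate 3 the highest of both 9 Gy groups. The log2 fold change was -1.44 (SE 0.24, adjusted p = 0.000199) at day 3 and -1.61 (SE 0.21, adjusted p = 2.8e-05) at day 7. Ifngr2 stayed lower in all alternatives and kept its call in all 28 at day 7. At day 3 it kept it in 26 of 27, the exception being total-count scaling (-0.44, adjusted p = 0.0863). With only the 1 day 3 sample of undisputed label, assumed to vary like the other groups, it was at -1.05 (adjusted p = 0.0271).

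Ifngr1, the ligand-binding chain, stood at 19.0, 22.3 and 34.6 normalized counts with sham EVs. It stood at 28.0 to 29.7 with 9 Gy day 3 EVs, from 5 to 9 raw counts, and at 22.6 to 25.1 with 9 Gy day 7 EVs. All 6 samples lay within the sham range. The log2 fold change was 0.19 (SE 0.38, adjusted p = 0.683) and -0.08 (SE 0.27, adjusted p = 0.808), the latter positive under the other 4 scalings, from 0.12 to 1.02. With total counts Ifngr1 passed as higher at both days (1.20, adjusted p = 0.0271, and 1.02, adjusted p = 0.00785). With 2 Gy day 3 EVs, Ifngr1 stood at 12.8, 12.3 and 17.2, below every sham sample, at a log2 fold change of -0.85 (SE 0.30, unadjusted p = 0.0142, adjusted p = 0.998). It was the only member with an unadjusted p under 0.05 in that comparison and did not pass the adjustment. Samples lay below all sham samples in that comparison for 8.18% of the tested genes and for 3 members, Ifngr1, Il13ra1 and Il17ra. The Ifngr2 promoter, printed for the larger change in the pair, held 1 match to the partial NF-kB motif, beginning at position -75 from the start, and the Ifngr1 promoter held no match to any of the 3 motifs.
Ifngr2 promoter, chr16:91546809-91547058, plus strand: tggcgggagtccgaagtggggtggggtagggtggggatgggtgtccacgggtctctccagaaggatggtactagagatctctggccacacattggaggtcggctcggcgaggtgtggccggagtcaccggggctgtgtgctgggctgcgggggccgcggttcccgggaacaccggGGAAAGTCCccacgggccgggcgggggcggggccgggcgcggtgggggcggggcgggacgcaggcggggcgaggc

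**Figure D2:**
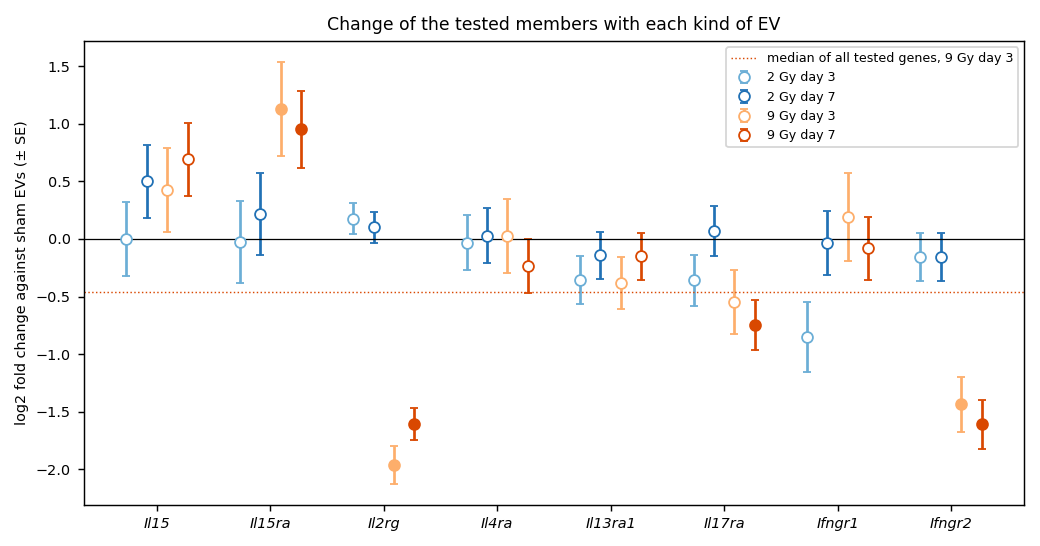
Log2 fold change against sham EVs (error bars, SE from the edgeR fit) of the 8 tested members for the 4 kinds of EVs from irradiated mice, with 3 samples a group. Filled points passed an adjusted p of 0.05; the dotted line is the median of all 269 genes with 9 Gy day 3 EVs (-0.46). Il2rg and Ifngr2 were lower and Il15ra higher with both 9 Gy EVs, and no point with 2 Gy EVs passed. The day 3 call of Il15ra rested on the samples of conflicting labels.

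Among the remaining receptors, only Il17ra passed the test with housekeeping scaling. Il17ra, the chain shared by the receptors for IL-17A and IL-17F, stood at 68.6, 82.3 and 78.3 normalized counts with sham EVs. It stood at 77.1, 44.0 and 42.9 with 9 Gy day 3 EVs, where 1 sample lay within the sham range, and at 44.3, 61.5 and 31.1 with 9 Gy day 7 EVs, all below sham. The log2 fold change was -0.55 (SE 0.28, adjusted p = 0.114) at day 3 and -0.75 (SE 0.22, adjusted p = 0.00933) at day 7. Without 9 Gy day 3 replicate 1 the day 3 value passed as lower (-0.81, adjusted p = 0.0384). Without both samples of conflicting labels it was at -0.83, from 1 remaining sample. The day 7 decrease lay only 0.30 beyond the median of all genes, and passed with 1 of 5 scalings. With TMM scaling it was -0.26 (adjusted p = 0.308), and with total-count scaling it turned to 0.39.

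Il4ra, the IL-4 binding chain, stood at 25.3 to 37.7 normalized counts with sham EVs, at 20.02 to 42.9 with 9 Gy day 3 EVs and at 18.4 to 33.4 with those of day 7. All 3 groups overlapped, and the log2 fold changes were 0.02 (SE 0.32) and -0.24 (SE 0.23), with adjusted p of 0.952 and 0.389. Il13ra1, which joins Il4ra to form the receptor for IL-13, stood at 172 to 230 with sham EVs, at 107 to 178 with EVs of 9 Gy day 3 and at 143 to 233 with those of day 7. The ranges overlapped again, with log2 fold changes of -0.38 (SE 0.23) and -0.15 (SE 0.20) and adjusted p of 0.171 and 0.536. The day 7 value of Il4ra and both values of Il13ra1 turned positive under TMM, median-of-ratios and total-count scaling. With total counts the values at day 3 and day 7 reached 1.02 and 0.84 for Il4ra and 0.63 and 0.97 for Il13ra1, and passed as higher for Il4ra at both days (adjusted p = 0.0103 and 0.00345) and for Il13ra1 at day 7 (adjusted p = 0.00239).

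**Figure D3:**
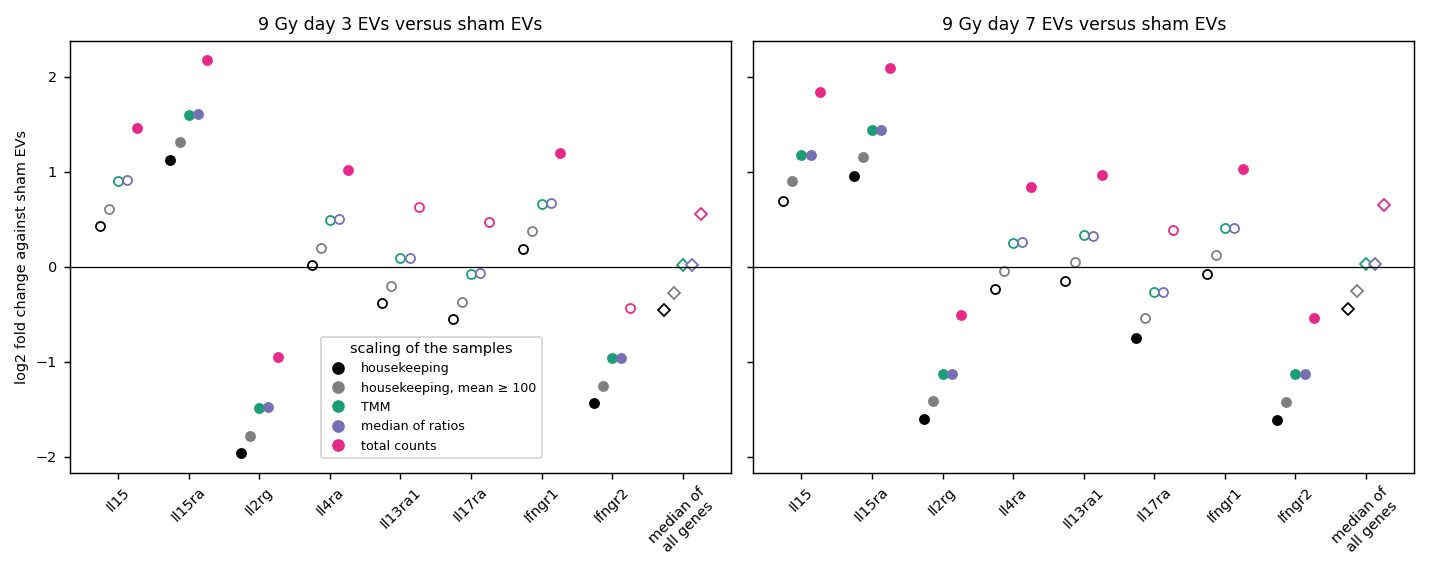
Log2 fold change of the 8 tested members against sham EVs under 5 scalings of the samples, for 9 Gy day 3 EVs (left) and 9 Gy day 7 EVs (right). Filled points passed an adjusted p of 0.05, and diamonds give the median of all tested genes. Il2rg stayed negative and Il15ra positive, past the threshold, under all 5 scalings at both days, Ifngr2 stayed negative throughout, and Il4ra, Il13ra1, Il17ra and Ifngr1 changed sign with the scaling at 1 or both days.

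The size of the changes can be set against the housekeeping genes used for scaling. Of these, 13 were tested, and their own log2 fold changes ran from -0.74 (Rpl19, a ribosomal protein) to 1.38 (Tubb5, a tubulin) at day 3 and from -0.87 to 1.63 for the same genes at day 7, with 9 and 8 of 13 past the threshold. Of the 8 tested members, only Il2rg and Ifngr2 lay outside that range, both below it. The Il15ra change lay within it.

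**Figure D4:**
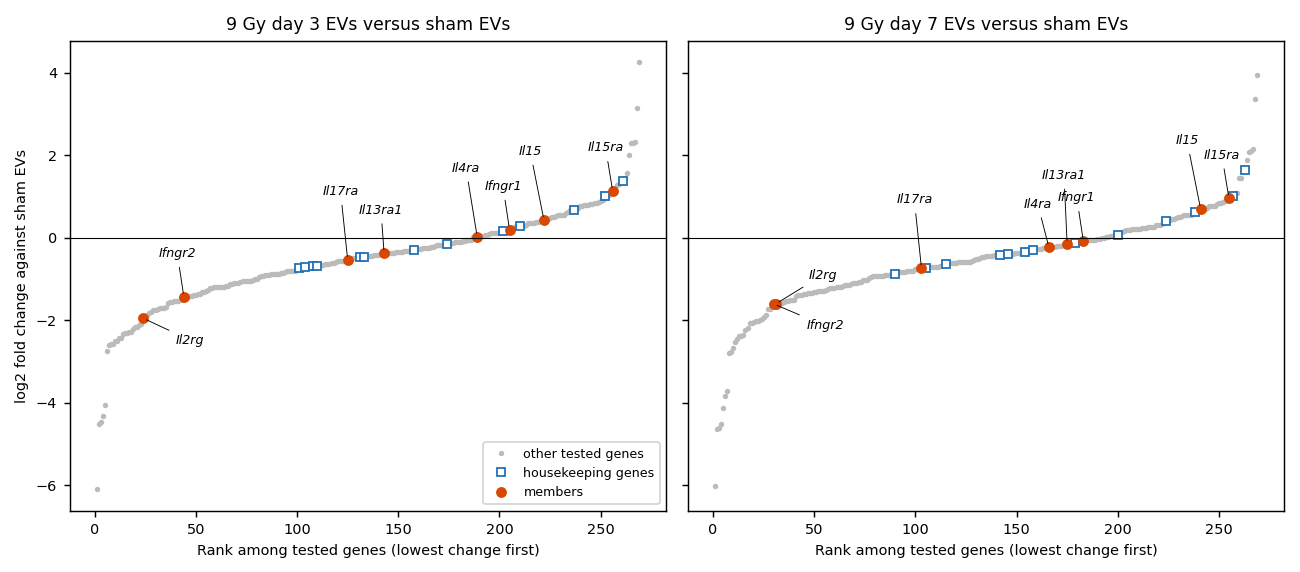
All 269 tested genes ranked by log2 fold change against sham EVs, for 9 Gy day 3 EVs (left) and 9 Gy day 7 EVs (right), with housekeeping scaling. Members are filled orange and the 13 tested housekeeping genes are open blue squares. Il2rg and Ifngr2 lie below every housekeeping gene, and the other 6 members lie between the lowest (-0.74 and -0.87) and highest (1.38 and 1.63) of them.

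The members at the lowest counts could not be followed at this depth. Il6ra, the IL-6 binding chain, had 13 to 27 raw counts with sham EVs, 2 to 4 with EVs of 9 Gy day 3 and 21 to 28 with those of day 7. Summed over a group and scaled, its ratio to sham was 0.879 (95% exact interval 0.381 to 1.80) at day 3 and 0.842 (0.583 to 1.22) at day 7. Il21r, the IL-21 binding chain that pairs with the Il2rg product, had 3 to 7 raw counts with sham EVs, 1 in every 9 Gy day 3 sample and 4 to 7 with 9 Gy day 7 EVs. Since 1 is the lowest deposited value, no ratio is given for day 3, and that at day 7 was 0.575 (0.272 to 1.21). These intervals cover counting error only. The median lymphocyte marker, a level for genes that a macrophage line should lack, had 6 to 11 counts outside the 9 Gy day 3 group, so Il21r, at 2 to 9 counts in the same samples, stood at or near that level and a difference was not detectable. With 2 Gy EVs the ratios lay between 0.945 and 1.14 for both genes. In an edgeR fit of all 561 genes without a filter, neither gene passed against sham EVs in any group, the lowest adjusted p being 0.174 for Il21r with 9 Gy day 7 EVs.

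Compared directly, 9 Gy and 2 Gy EVs (mean of both days, from the fit of all 5 groups) differed in 4 of 8 members, 1 higher and 3 lower, where 67.7% of all tested genes were called, 15.6% higher and 52% lower. With TMM and with median-of-ratios scaling 6 members were called, 4 higher and 2 lower, where 62.8% of genes were called by either (with TMM 33.1% higher and 29.7% lower). With total counts 7 were called, 6 higher and 1 lower, where 62.5% of genes were higher and 13.4% lower. Il2rg stood at 80.1 to 128 normalized counts over the 6 samples with 9 Gy EVs and at 356 to 418 over the 6 with 2 Gy EVs, and the ranges did not overlap. Its log2 difference, 9 Gy minus 2 Gy, was -1.92 (SE 0.11, adjusted p = 5.0e-09). Ifngr2 stood at 94.8 to 172 against 298 to 353, again without overlap, with a difference of -1.37 (SE 0.16, adjusted p = 4.7e-06), which was kept in 27 of 28 alternatives (with total counts -0.26, adjusted p = 0.114). Below all samples of the other dose lay 2 members and 36.1% of tested genes. Il15ra was higher by 0.94 (SE 0.26, adjusted p = 0.00589) with overlapping ranges of 36.3 to 130 and 28.8 to 51.6, and this call was lost without the samples of conflicting labels (0.39, adjusted p = 0.329). Il17ra was lower by 0.50 on the log2 scale (SE 0.18, adjusted p = 0.0218), also with overlap, a call that 1 of 5 scalings gave. With TMM scaling it was at -0.04 (adjusted p = 0.857), and with total counts it was called higher (0.65, adjusted p = 0.0130). Without the whole 9 Gy day 3 group, the shallow one, 4 members of the 9 then tested and 178 genes in all were called. Il2rg was then at -1.75 (adjusted p = 7.8e-07) and Ifngr2 at -1.45 (adjusted p = 2.8e-05). The number of genes tested in that fit is not given, so its member calls are not compared with a share of the panel. Il15 (0.31, adjusted p = 0.254), Il4ra, Il13ra1 and Ifngr1 (0.50, adjusted p = 0.0816) did not pass with housekeeping scaling. Ifngr1 was called higher with the other 4 scalings (TMM 0.96, adjusted p = 0.00491). Il15 (TMM 0.78, adjusted p = 0.00956) and Il13ra1 (TMM 0.45, adjusted p = 0.0164) were called higher with 3 of 5, and Il4ra with total counts alone.

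Between days at the same dose, no member and no other gene passed with all 5 groups in the fit (0% at either dose). At an unadjusted p under 0.05, no member and 2.23% of genes passed at 9 Gy, and 1 member, Ifngr1, and 1.49% of genes at 2 Gy. DESeq2 called no gene in either comparison. At 9 Gy the largest member difference, day 7 minus day 3, was 0.35 for Il2rg (SE 0.17, adjusted p = 0.986), and the day 7 samples of Ifngr1 lay below all day 3 samples, as 3.72% of genes did. At 2 Gy it was 0.81 for Ifngr1 (SE 0.30, unadjusted p = 0.0175, adjusted p = 0.998). The difference of the day effect between the doses passed for no member (adjusted p of 0.993 for all 8) and for 0% of genes, with DESeq2 at 0 genes as well. At an unadjusted p under 0.05, 1.49% of genes and 1 member passed, Ifngr1 at -1.09 (SE 0.48, unadjusted p = 0.0421).

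Samples with the same replicate number deviated together between the days of a dose, so the day comparisons were also fitted on the 6 samples of a dose with the number as a block, an analysis chosen after seeing the data. At 9 Gy this called no gene. At 2 Gy it called 29 of 280 genes (10.4%), 9.29% higher, and Il15 and Il17ra among them, both higher at day 7. Il15 was higher by 0.51 (SE 0.13, adjusted p = 0.0369), with log2 differences within the 3 pairs of 0.03, 0.75 and 0.55. Il17ra was higher by 0.42 (SE 0.11, adjusted p = 0.0374), with differences of 0.58, 0.35 and 0.37, and its 2 Gy day 7 samples (78.0 to 82.0) lay above all 2 Gy day 3 samples (54.9 to 63.3), as 4.09% of genes did. All 3 pairs were higher at day 7 for both genes, and the first Il15 pair differed little. With the same block in the fit of all 5 groups, no member was called.

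Ratios of members within a sample do not depend on how samples are scaled, and show unequal change only. They were chosen after values were seen and are given without a test. The log2 ratio of Il15 to Il2rg counts averaged -2.19 ± 0.28 (SD, n = 3) with sham EVs, 0.20 ± 0.50 with 9 Gy day 3 EVs and 0.06 ± 0.67 with those of day 7. That of Il15ra to Il2rg averaged -3.32 ± 0.37, -0.31 ± 1.01 and -0.80 ± 0.65. Every 9 Gy sample lay above every sham sample in both ratios, and above every 2 Gy sample as well. Against the sham mean, the group means were higher by 2.39 and 2.25 for Il15 and by 3.01 and 2.52 for Il15ra. The 1 day 3 sample without conflicting labels was higher by 1.87 in both ratios.

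The 2 chains of a receptor were compared in the same way. Ifngr2 also lay below the median of all genes, by 0.98 and 1.16 at 9 Gy day 3 and day 7. Higher ratios over Ifngr2 or Il2rg therefore restate these decreases in part. The ratio of Ifngr1 to Ifngr2 averaged -3.85 ± 0.33 with sham EVs, -2.10 ± 0.43 with 9 Gy day 3 EVs and -2.24 ± 0.46 with those of day 7, without overlap. That of Il4ra to Il2rg, which form the first type of IL-4 receptor, averaged -3.53 ± 0.13, -1.63 ± 0.40 and -2.18 ± 0.51, also without overlap. The day 3 sample without conflicting labels lay above the sham mean by 1.32 in the first of these ratios and by 2.33 in the second. That of Il4ra to Il13ra1, which form the second type, averaged -2.69 ± 0.44, -2.31 ± 0.63 and -2.78 ± 0.80, and the groups overlapped. The ratio of Il15 to Il15ra was 1.13 ± 0.16 with sham EVs and 0.51 ± 0.67 at 9 Gy day 3, with overlap, and 0.86 ± 0.08 with 9 Gy day 7 EVs, below all sham samples. With 2 Gy EVs all 6 ratios overlapped sham at both days.

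**Figure D5:**
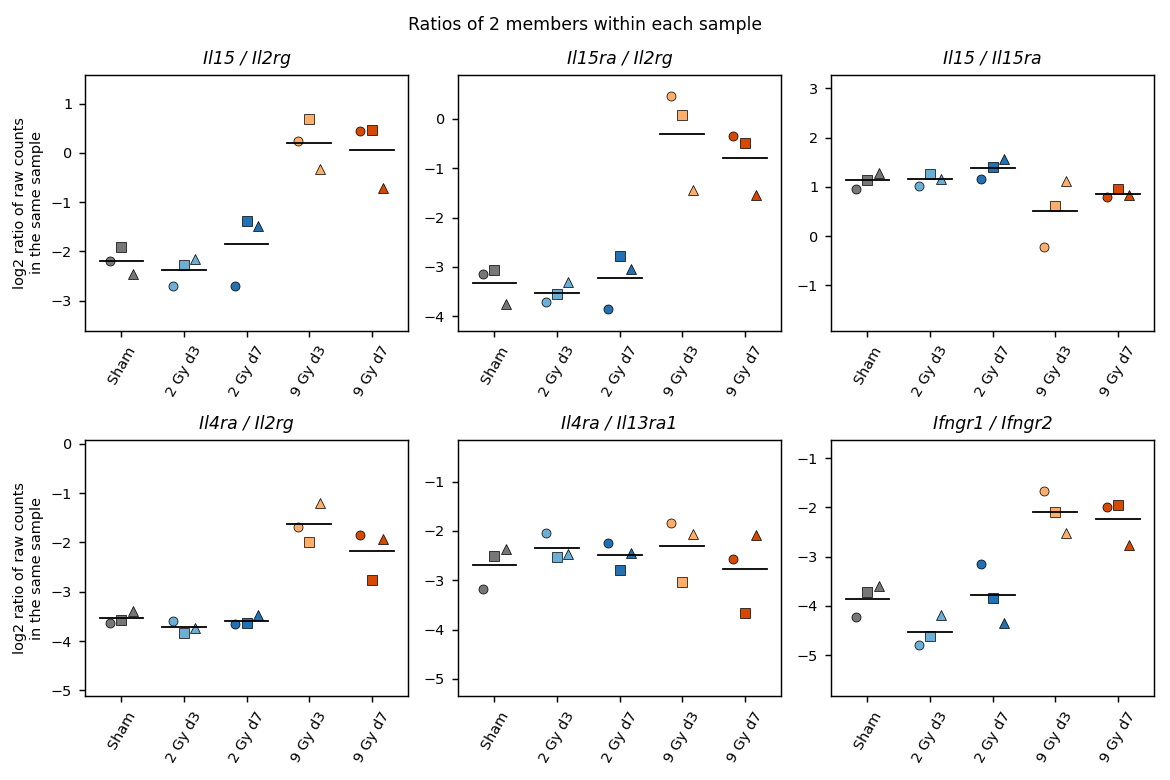
Log2 ratio of the raw counts of 2 members in the same sample, for 6 pairs and 5 EV groups, with all panels spanning the same number of log2 units. Circles, squares and triangles are replicates 1, 2 and 3 and the bar is the group mean. Il15, Il15ra and Il4ra over Il2rg, and Ifngr1 over Ifngr2, lie higher in all 6 samples with 9 Gy EVs than in all sham samples, while Il4ra over Il13ra1 overlaps.

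Most ligands of these receptors were near the lowest counts of the panel. Of 11 ligand genes, 9 had a mean under 20 counts and were not tested, including Ifng (mean 4.13, highest 9), Il13 (8.33), Il17a (8.73), Il2 (5.27) and Il21 (16.8). The other 2 were Il6, an LPS-induced cytokine, at a mean of 1906 counts, and Il4, at 23. Il6 fell from 2443 normalized counts with sham EVs to 34.2 with EVs of 9 Gy day 3 (log2 fold change -6.10, SE 0.39, adjusted p = 3.4e-08) and 37.4 with those of day 7 (-6.02, SE 0.35, adjusted p = 1.4e-08), under all 5 scalings at both days. Il4 stood at a count of 1, the lowest deposited value, in all 3 samples with 9 Gy day 3 EVs, so no fold is given there. With 9 Gy day 7 EVs it passed as lower at -0.90 (SE 0.29, adjusted p = 0.0158), from 21.2 normalized counts with sham EVs. Its calls did not hold at both days under TMM, median-of-ratios or total-count scaling.

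The list of further gamma chain family genes was mostly below the filter, with 2 of 8 tested, Il4 and Il2rb, which other lists also hold. Il2rb, the beta chain shared by the IL-2 and IL-15 receptors, was at -0.49 (SE 0.46, adjusted p = 0.374) with 9 Gy day 3 EVs and fell by 1.51 (SE 0.32, adjusted p = 0.00116) with those of day 7, from 23.4 normalized counts with sham EVs, a call lost with total counts.

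Among 12 tested of 27 other cytokine receptor chains on the panel, 2 were higher and 5 lower with 9 Gy day 3 EVs, and 2 higher and 6 lower with 9 Gy day 7 EVs, where 41.3% and 49.1% of all tested genes were lower. The balance turned with the scaling, to 4 higher and 2 lower at day 3 and 3 higher and 4 lower at day 7 with TMM, and to 5 higher and 1 lower at either day with total counts. Of all genes, 21.9% and 27.9% were higher and 22.3% and 28.3% lower with TMM. With total counts 45% and 53.2% were higher and 12.3% and 11.5% lower. With housekeeping scaling the median log2 fold change of these receptor chains was -0.44 and -0.64, beside -0.46 and -0.45 for all tested genes. Csf1r, the receptor for macrophage colony stimulating factor and also on the macrophage list, rose by 2.29 (SE 0.26, adjusted p = 8.9e-06) and 1.87 (SE 0.23, adjusted p = 1.4e-05). Il1rl1, the IL-33 receptor, rose by 1.31 (SE 0.33, adjusted p = 0.00461) and 0.96 (SE 0.26, adjusted p = 0.00519). Crlf2, the receptor for thymic stromal lymphopoietin, was at -1.80 (SE 0.20, adjusted p = 7.2e-06) and -1.58 (SE 0.17, adjusted p = 4.6e-06). All 3 kept direction and call under 5 scalings at both days. Ifnar2, a chain of the type I interferon receptor, was at -1.09 (SE 0.19, adjusted p = 0.000260) and -0.93 (SE 0.17, adjusted p = 0.000365), a call lost with total counts at 1 or both days. Il6st, the gp130 chain that transmits the signal of Il6ra, was named after its values were seen and was at -1.10 (SE 0.29, adjusted p = 0.00603) and -0.91 (SE 0.20, adjusted p = 0.00170), a call that TMM scaling did not keep at both days.

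Below the receptors, 11 of 14 JAK, STAT and SOCS genes were tested, with 1 higher and 3 lower at day 3 and 1 higher and 6 lower at day 7, and medians of -0.53 and -0.60. Of all tested genes 11.2% and 11.9% were higher and 41.3% and 49.1% lower, with medians of -0.46 and -0.45. With TMM these counts were 2 higher and 1 lower at day 3 (21.9% and 22.3% of all genes) and 2 and 2 at day 7 (27.9% and 28.3%). With total counts 3 and 5 were higher and 0 lower, where 45% and 53.2% of all genes were higher and 12.3% and 11.5% lower. Tyk2, the kinase of the type I interferon and IL-12 receptors, rose by 1.28 (SE 0.26, adjusted p = 0.00109) and 0.76 (SE 0.22, adjusted p = 0.00942) and kept its call under all 5 scalings. Jak1 (-0.67, SE 0.17, adjusted p = 0.00546, and -0.77, SE 0.16, adjusted p = 0.000786) and Stat3 (-0.43, SE 0.17, adjusted p = 0.0447, and -0.60, SE 0.16, adjusted p = 0.00485) were lower with housekeeping scaling, not at both days under TMM scaling, and Stat3 was higher with total counts.

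Of 16 genes on the panel known to be induced by interferon-gamma, 10 were tested. With either 9 Gy EV, 7 were lower and 1 higher, with medians of -1.17 at day 3 and -0.77 at day 7. Of all tested genes 41.3% and 49.1% were lower and 11.2% and 11.9% higher, with medians of -0.46 and -0.45. With TMM scaling 5 were lower and 1 higher at either day, where 22.3% and 28.3% of all genes were lower and 21.9% and 27.9% higher. With total counts 3 were lower and 3 higher at day 3 (12.3% and 45% of all genes). At day 7 these counts were 1 lower and 4 higher (11.5% and 53.2% of all genes). The invariant chain gene Cd74 was at -2.09 (SE 0.10, adjusted p = 3.9e-09) and -2.20 (SE 0.10, adjusted p = 1.9e-09). Fcgr1, the high-affinity Fc receptor, was at -1.94 (SE 0.45, adjusted p = 0.00290) and -1.91 (SE 0.42, adjusted p = 0.00148), and the immunoproteasome gene Psmb9 at -1.83 (SE 0.21, adjusted p = 9.6e-06) and -1.31 (SE 0.17, adjusted p = 2.8e-05). The chemokine gene Cxcl10 went the other way and rose by 2.32 (SE 0.41, adjusted p = 0.000359) and 2.08 (SE 0.41, adjusted p = 0.000602). Cd74 and Cxcl10 kept direction and call under all 5 scalings, while Fcgr1 and Psmb9 did so under all but total counts. Many of these genes also respond to LPS. Of the genes induced by IL-4 or IL-13, only the chemokine gene Ccl22 was tested, at 0.66 (SE 0.62, adjusted p = 0.381) and 0.85 (SE 0.58, adjusted p = 0.222). With total counts alone Ccl22 was called higher, at both days. With 2 Gy EVs no gene of any of these lists passed the test against sham EVs.

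Likeness of pattern was taken as the root mean square difference of the 4 log2 fold changes against sham EVs, over 4 groups that share the sham samples. Nearest to Il15 were Icosl, a T cell costimulatory ligand, at 0.153, the Toll-like receptor gene Tlr2 at 0.190 and the Fc receptor gene Fcgr4 at 0.206. Nearest to Il15ra were Ppia at 0.0678, itself 1 of the housekeeping genes, and the interferon-inducible genes Irgm1 at 0.1004 and Ifit2 at 0.126.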

How the data were processed

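Gene expression was measured with the nCounter Mouse Immunology panel in RAW 264.7 macrophages. The authors deposited the raw count of each gene in each sample, without control probes. According to the methods they normalized these counts in nSolver, with settings not given in the sources used here, so neither their normalized values nor a background subtraction was used. The lowest deposited count is 1. Samples were grouped by title.

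Each sample was divided by a factor from the geometric mean of its 14 housekeeping genes. The 269 of 561 genes averaging 20 or more counts entered one quasi-likelihood fit of all 5 groups in edgeR 4.0.16 (R 4.3.3; limma 3.58.1, prior count 0.125), with Benjamini-Hochberg adjustment over all genes tested and a threshold of 0.05. The SE of a log2 fold change is its absolute value over the square root of F. An exact permutation test of 3 against 3 samples cannot go below p = 0.1. Alternatives covered 5 scalings, DESeq2 1.42.0, filters, a floor of 20 counts, the groups in the fit, the replicate block, the conflicting labels and leaving out each sample.

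The member genes and gene lists were chosen with earlier results of these data known. All members are described. Of each list, the text names at most 4 genes, those past the threshold in both 9 Gy comparisons by size, or all genes of a list with 5 or fewer tested, and the 3 genes most like Il15 and Il15ra.

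Whether samples with the same replicate number deviated alike from their groups was checked. The correlations across genes ran from 0.365 to 0.779 between the 2 Gy groups and from 0.330 to 0.717 between the 9 Gy groups, and were not all over 0.1 in the other 8 of 10 group pairs. The pairing comes from these values, since the labels do not say what a number shares.

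Promoters (250 bases before the start) are from RefSeq for GRCm38.p6. Of the 561 symbols, 545 matched its gene table directly, 14 as older symbols and 2 not.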

Additional observations from a re-analysis of the deposited data

How the results depend on the processing

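Il2rg kept its direction and call in every alternative run for 9 Gy EVs against sham EVs at both days and against 2 Gy EVs. Total-count scaling raised the number of members called from 3 to 5 (4 higher) at 9 Gy day 3, from 4 to 7 (5 higher) at 9 Gy day 7 and from 4 to 7 (6 higher) between doses, where TMM and median-of-ratios scaling gave 6 (4 higher). A mean of at least 100 counts tested 4 members and called 2 at 9 Gy day 7 (109 genes in all against 164) and 2 between doses (122 against 182), since fewer genes were tested. Setting counts under 20 to 20 before scaling lifts low genes most in the shallow 9 Gy day 3 samples by construction. It called 7 members at 9 Gy day 3 (250 genes in all against 141), 4 between the 9 Gy days (168 genes against 0) and 5 in the day by dose interaction (132 against 0). The numbers of genes tested with this floor and with the higher mean are not given. Whether members were called more often than the panel there was not tested. With the samples of conflicting labels at day 7 or left out, 74 and 79 genes were called at 9 Gy day 3, with 2 members called each time, Il2rg and Ifngr2.

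The following log2 fold changes took the opposite sign, and the cause was not tested. With TMM, total-count and median-of-ratios scaling, Il13ra1 was at 0.094, 0.63 and 0.10 for 9 Gy day 3 EVs and at 0.33, 0.97 and 0.33 for 9 Gy day 7 EVs. In the same order, day 7 values were 0.25, 0.84 and 0.26 for Il4ra and 0.41, 1.02 and 0.41 for Ifngr1, and between doses they were 0.36, 1.01 and 0.34 for Il4ra and 0.45, 1.13 and 0.43 for Il13ra1. Total counts alone turned Il17ra, to 0.47 at day 3, 0.39 at day 7 and 0.65 between doses. Scaling by housekeeping genes averaging 100 or more turned Il13ra1 (0.052) and Ifngr1 (0.12) at day 7, and Il4ra (0.083) and Il13ra1 (0.18) between doses. Between doses, the conflicting samples at day 7 or left out gave 0.11 and 0.11 for Il4ra and 0.043 and 0.10 for Il13ra1. The floor of 20 gave 0.46 for Il4ra there, and leaving out the whole 9 Gy day 3 group, added after seeing the data, gave 0.10 for Il13ra1.

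Leaving out 1 sample at a time kept the number of members called at 2 to 3 for 9 Gy day 3 (112 to 146 genes in all), 3 to 5 for 9 Gy day 7 (146 to 175) and between doses (167 to 184), and 0 elsewhere. These ranges are counts without the number of genes tested in each fit, so members and panel are not compared by share. Leaving out samples also changed signs. This turned 4 small values, with ranges of -0.37 to 0.28 for Il4ra at 9 Gy day 3, -0.24 to 0.22 for Ifngr1 at 9 Gy day 7, and -0.30 to 0.021 for Il4ra and -0.14 to 0.067 for Il13ra1 between doses.

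Across all 5 groups, a replicate block for the pairing changed 1 member call, Il15 at 9 Gy day 7 (0.68, adjusted p = 0.0444). With the replicate block and only the groups compared, 2 members were called between the 2 Gy days (29 genes against 0) and 0 between the 9 Gy days. Members at 9 Gy day 3 rest on 1 to 54 raw counts a sample, which limits what could be detected there.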

Other observations

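Within both 9 Gy groups, replicate 3 stood on the same side of the other samples for several members. Il13ra1 and Ifngr1 went otherwise, with replicate 3 highest at day 3 (178 and 29.7) and lowest at day 7 (143 and 22.6). Over all tested genes, samples of the same number correlated by 0.330 to 0.717 between these groups, so the pattern is not particular to the members. Replicate 3 held the lowest Il15 (79.3 normalized counts at day 3 and 78.1 at day 7, against 113 to 172 in the other 4 samples) and the lowest Il15ra (36.3 and 43.8, against 75.7 to 130). It held the highest Ifngr2 (172 and 154, against 94.8 to 120) and the highest Il4ra (42.9 and 33.4, against 18.4 to 29.6). The same samples held the lowest log2 ratio of Il15 to Il2rg in each 9 Gy group, at -0.32 and -0.71, against 0.25 to 0.68. At 2 Gy day 7 it was replicate 1 that held the lowest Il15 and Il15ra (64.3 and 28.8) and the highest Ifngr1 (36.9). These comparisons within a group were made after the values were seen and have no test.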
